A study of Homo sapiens with 6 samples.

Results

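The genes described here are 36 genes of glycolysis and of the cellular response to low oxygen, chosen by name: 17 glycolytic enzymes and lactate dehydrogenases, 3 PFKFB regulators of glycolytic flux, 2 pyruvate dehydrogenase kinases, 6 genes of the hypoxia-inducible factor (HIF) pathway and 8 HIF targets. Of these, 34 have a row among the 34675 genes of the deposited comparison, and CA9 and EGLN3 have none. U2932 cells, a lymphoma line, grew out of a human diffuse large B cell tumour. The cells were infected with a short hairpin RNA against PRDM11, a gene of the PR domain family, or with a scrambled hairpin in the pLKO-puro plasmid, and both were kept in puromycin for 3 days. RNA sequencing was done on 3 samples per group, and a single hairpin sequence stands for the knockdown. No change of oxygen or glucose is named in the labels, and separate cultures are not mentioned either. The p-values therefore speak only to how far these 6 samples scatter, and that scatter may be technical.

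Glycolysis splits glucose to pyruvate in the cytosol, and lactate dehydrogenase turns pyruvate to lactate. HIF is a dimer of an oxygen-sensitive alpha subunit, HIF1A or EPAS1, and the constant partner ARNT. With oxygen present, EGLN enzymes hydroxylate the alpha subunit and VHL marks it for destruction. In low oxygen it persists and activates genes through short elements often built around the letters ACGTG. Among these genes are many glycolytic enzymes, pyruvate dehydrogenase kinases and PFKFB genes.

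The deposited comparison names its sides only A and B, and no header or label says which is the knockdown, so ratios are written as A over B and no side is called treated. PRDM11 itself had 268, 272 and 323 normalised reads (reads divided by the library's size factor) in the libraries of A and 565, 516 and 545 in B. The groups did not overlap, and limma gave a log2 ratio of -0.92 (SE 0.11, adjusted p = 0.00116). The deposited means summed to 43812481 normalised reads in A and 41847907 in B. Reads of single libraries were recovered from the deposited means, with 21791172 to 41762295 recovered reads per library. The B cell markers MS4A1, CD79A, CD79B, PAX5 and CD22 were each above 50 normalised reads, and none of the 4 T cell or 4 myeloid markers with a row was. The authors' deposited table gave EPCAM, an epithelial adhesion gene, 1285 and 1242 normalised reads. The other 3 epithelial markers stood below 50, and of the 4 fibroblast markers COL1A1 alone was above it, at 52.7 and 61.3 in the authors' deposited table.

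Genes of this set tended to lower levels in A, and the calls were all in that direction. Counting DESeq adjusted p under 0.05, the authors' deposited table called 8 of the 34 members lower in A and 0 higher, beside 2.54% of all genes in either direction (1.57% lower, 0.966% higher). Restricted to means of 50 normalised reads or more, a level 33 members reach, the background was 6.04% (3.86% lower, 2.18% higher). The called members were PFKFB4, ALDOC, VEGFA, BNIP3, P4HA1, PFKFB3, PDK1 and HK1. At an unadjusted p under 0.05 the authors' deposited table had 14 members, 13 of them lower, where 5.3% of all genes were lower and 4.31% higher at that threshold (11.9% and 8.91% of genes at 50 reads or more). The median log2 ratio of the 34 members was -0.11, against 0.01 for all genes, and 25 members had a log2 ratio below 0. Since these are whole cultures, fewer cells of a kind and less RNA per cell cannot be told apart. The members were picked with earlier results of these data known, so their share of calls describes them and does not test them.

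**Figure D1:**
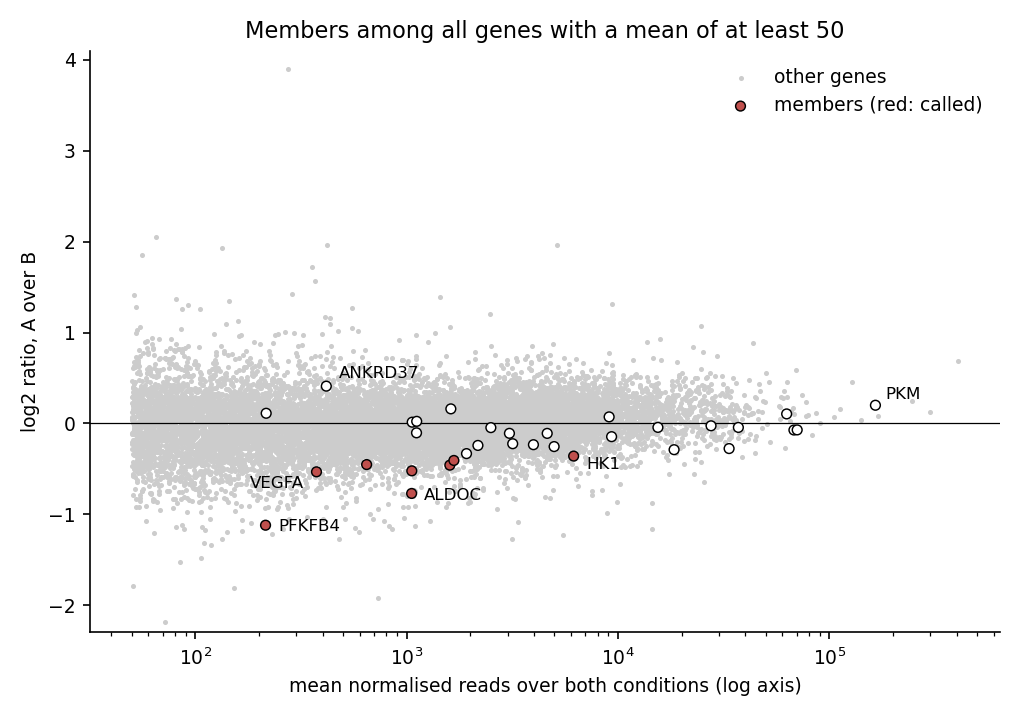
Log2 ratio of A over B (vertical axis) against mean normalised reads (horizontal, log axis) for genes at 50 reads or more. Red points are the 8 called members, all below 0, open points the other members, and grey points all other genes.

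Libraries could be read one by one for 26 members. The 3 libraries of A lay wholly below those of B in 15 of these and wholly above in 1, ANKRD37, while 10 overlapped. Of the 13000 recovered genes at 50 or more reads, 18.4% lay wholly below and 16.3% wholly above. A limma fit on log2(normalised reads + 1) over 17048 genes, used as a second test, called 10 members. All 8 deposited calls were among them, together with EGLN1, lower, and ANKRD37, higher, where 5.51% of the fitted genes were called lower and 4.04% higher.

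**Figure D2:**
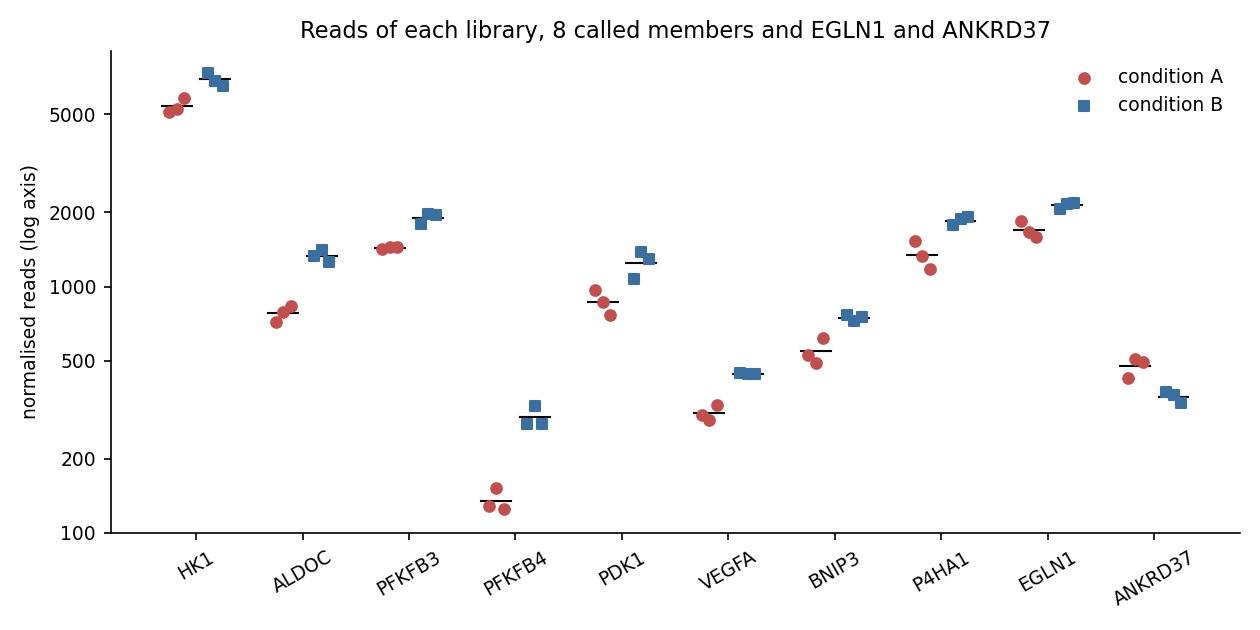
Normalised reads (log axis) of each library for the 8 called members and for EGLN1 and ANKRD37, with condition A as circles, condition B as squares and black lines at the means. In each of these genes the libraries of one condition lie on one side of the other, with ANKRD37 alone higher in A.

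Of the 17 glycolytic enzymes, all at 50 reads or more, the authors' deposited table called 2 lower (11.8%, beside 3.86% of genes at that level) and 0 higher. At an unadjusted p under 0.05 it had 6 lower and 0 higher, beside 11.9% and 8.91% of genes at that level. Limma could be fitted to the 9 recovered enzymes only. It called 2 of them lower and 0 higher, beside 5.51% and 4.04% of the fitted genes. The median log2 ratio was -0.10. ALDOC, an aldolase best known from brain, fell most. It had 715, 789 and 835 normalised reads in the libraries of A and 1337, 1402 and 1253 in B, so that the highest library of A stayed well under the lowest of B. The authors' deposited table puts its log2 ratio at -0.77 (adjusted p by DESeq = 1.29e-07), with a limma standard error of 0.09. HK1, the widely expressed hexokinase that starts glycolysis by phosphorylating glucose, had 5133, 5269 and 5803 in A and 7390, 6856 and 6549 in B. Its groups did not overlap, and the gap between them was about as wide as the range within each. The authors' deposited table puts the log2 ratio of HK1 at -0.36 (adjusted p by DESeq = 0.0441), with a limma standard error of 0.08 and a limma adjusted p of 0.0234.

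The enzymes that carry the bulk of the glycolytic transcripts were not called. PKM, the pyruvate kinase gene and the member with the most reads, averaged 176613 normalised reads in A against 153786 in B by the authors' deposited table (ratio of 0.20 on the log2 scale, adjusted p by DESeq = 1). Its libraries could not be recovered, so its spread is not shown. GAPDH, which oxidises triose phosphate, ENO1, the common enolase, and ALDOA, the aldolase of muscle and most other cells, stood at -0.07, -0.07 and 0.10 on the log2 scale of the authors' deposited table. LDHA and GPI, which make lactate and fructose phosphate, stood at -0.04 and -0.03 there. PGK1, a kinase that yields ATP, and LDHB, the heart-type lactate dehydrogenase subunit, stood lower in the authors' deposited table, at log2 ratios of -0.29 and -0.28 (DESeq adjusted p of 0.264 and 0.387). TPI1, the triose phosphate isomerase, with 14756, 14918 and 15955 in A and 17043, 15293 and 14707 in B, overlapped between the conditions. PGAM1, the mutase ahead of enolase, overlapped too, with 1029 to 1124 in A and 1015 to 1333 in B. With means in A and B and the log2 ratio in brackets, the authors' deposited table gives GAPDH 66258 and 69698 (-0.07), ENO1 68686 and 72179 (-0.07) and ALDOA 65062 and 60530 (0.10). The next 4 in the authors' deposited table are LDHA 36530 and 37676 (-0.04), GPI 27298 and 27804 (-0.03), PGK1 16579 and 20261 (-0.29) and LDHB 30333 and 36752 (-0.28). Both of the overlapping enzymes lay near equality in the authors' deposited table, with TPI1 15210 and 15681 (-0.04) and PGAM1 1073 and 1153 (-0.10).

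Phosphofructokinase commits sugar to glycolysis, and its 3 isoforms were not called. PFKM had 4747, 4578 and 4310 normalised reads in A and 5433, 5274 and 5565 in B, wholly lower in A (the authors' deposited table lists a log2 ratio of -0.26, limma adjusted p = 0.0532). PFKL lay slightly lower in A, at 2824 to 3067 against 3110 to 3245. PFKP, at 8612 to 9788 against 8484 to 9404, overlapped. HK2, the inducible hexokinase, had 2011, 2044 and 1917 in A and 2302, 2379 and 2385 in B, again without overlap (the authors' deposited table lists a log2 ratio of -0.24, limma adjusted p = 0.0681). ENO2, the neuronal enolase, had 4341 to 4508 against 4668 to 4989 and a limma adjusted p of 0.345. Separation in this direction, by a gap of any size, was found in 18.4% of the recovered genes at 50 or more reads. Of the 9 recovered glycolytic enzymes, 6 lay wholly lower in A. The phosphofructokinases in the authors' deposited table are PFKM 4545 and 5424 (-0.26), PFKL 2947 and 3179 (-0.11) and PFKP 9302 and 8852 (0.07). For the hexokinases, ENO2 and ALDOC the same means in the authors' deposited table are HK2 1991 and 2355 (-0.24), ENO2 4446 and 4799 (-0.11), HK1 5402 and 6931 (-0.36) and ALDOC 780.0 and 1331 (-0.77).

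PFKFB enzymes make and remove the fructose bisphosphate that activates phosphofructokinase, and PFKFB3 and PFKFB4 are known HIF targets. PFKFB4 had the lowest ratio of all members. It had 129, 152 and 125 normalised reads in the libraries of A and 278, 327 and 278 in B. All 3 libraries of A lay far under the lowest of B. The authors' deposited table puts its log2 ratio at -1.12 (adjusted p by DESeq = 4.15e-09), with a limma standard error of 0.13. PFKFB3 had 1417, 1454 and 1442 in A, a narrow range, and 1798, 1972 and 1951 in B. For it the authors' deposited table has a log2 ratio of -0.41 (adjusted p by DESeq = 0.0327, limma standard error 0.08). PFKFB2 did not separate, with 1107, 1066 and 1027 in A inside the 920, 1176 and 1075 of B (limma log2 ratio 0.02, standard error 0.10). Means and log2 ratios of the 3 genes in the authors' deposited table are PFKFB4 135.4 and 294.3 (-1.12), PFKFB3 1438 and 1907 (-0.41) and PFKFB2 1067 and 1057 (0.01).

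Pyruvate dehydrogenase kinases switch off the entry of pyruvate into the mitochondrial cycle. PDK1 had 967, 868 and 769 normalised reads in A and 1070, 1378 and 1291 in B, so the groups were apart but both were wide. The authors' deposited table puts its log2 ratio at -0.52 (adjusted p by DESeq = 0.0405, limma standard error 0.12). PDK3, another kinase of this family, overlapped, with 1074, 1081 and 1217 against 1022, 1181 and 1116. As means and log2 ratios the authors' deposited table has PDK1 868.0 and 1246 (-0.52) and PDK3 1124 and 1106 (0.02).

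None of the 5 HIF pathway genes with a row was called in the authors' deposited table (0 at DESeq adjusted p under 0.05, and 1, EGLN1, at an unadjusted p under 0.05, where limma also called 1). By DESeq 2.54% of all genes were called, and 6.04% of those at 50 reads or more. At an unadjusted p under 0.05, 11.9% of genes at that level were lower, and limma called 5.51% of its fitted genes lower. With 5 genes, an absence of calls beside such shares says little. HIF1A had 8610, 8673 and 9275 normalised reads in A and 9111, 10192 and 10084 in B. These overlapped, and the limma log2 ratio was -0.15 with a standard error of 0.08. ARNT had 2308, 2396 and 2681 against 2679, 2533 and 2415, also overlapping (limma log2 ratio -0.05, standard error 0.09). EPAS1, the other alpha subunit, was low throughout, at 16.5 to 35.1 in A and 18.9 to 21.1 in B. Transcript levels do not report the amount of HIF protein, which oxygen controls after translation.

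EGLN1 and VHL act on the alpha subunit in the presence of oxygen, and neither was called in the authors' deposited table. EGLN1, the main prolyl hydroxylase and itself a HIF target, had 1849, 1662 and 1585 normalised reads in A and 2061, 2172 and 2184 in B. The groups did not overlap, and the authors' deposited table has a log2 ratio of -0.33 with a DESeq adjusted p of 0.178 while the limma adjusted p was 0.0365. VHL had 3896, 3802 and 3269 in A and 4014, 4386 and 4502 in B, separated by little (limma adjusted p = 0.121). Across the pathway the authors' deposited table has HIF1A 8853 and 9796 (-0.15), ARNT 2462 and 2542 (-0.05), EPAS1 26.7 and 19.7 (0.44), EGLN1 1699 and 2139 (-0.33) and VHL 3656 and 4301 (-0.23).

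Among the HIF targets outside glycolysis, 3 were called. VEGFA, the vascular growth factor, BNIP3, a mitophagy receptor, and P4HA1, a collagen prolyl hydroxylase subunit, were lower among 7 with a row, and 0 were higher in the authors' deposited table (1, ANKRD37, at an unadjusted p under 0.05 and by limma). All 7 were at 50 reads or more, where 3.86% of genes were called lower and 2.18% higher. At that level 8.91% of genes were higher at an unadjusted p under 0.05, and limma called 4.04% of its fitted genes higher. VEGFA had 302, 287 and 329 normalised reads in A and 444, 442 and 442 in B, the tightest of the called members within B. For it the authors' deposited table has a log2 ratio of -0.53 (adjusted p by DESeq = 0.0089, limma standard error 0.10). P4HA1 had 1535, 1331 and 1175 in A and 1774, 1872 and 1911 in B (the authors' deposited table lists a log2 ratio of -0.46, DESeq adjusted p = 0.0201). Its libraries of A were spread more widely than those of B.

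BNIP3 had 529, 490 and 618 normalised reads in A and 763, 725 and 752 in B (the authors' deposited table lists a log2 ratio of -0.45, DESeq adjusted p = 0.0173). Its value is uncertain, because 22 rows carry names of BNIP3 copies, and together they hold 77.6% as many reads as BNIP3 in A and 70.7% in B. One of these, BNIP3P17, was itself called lower, and the authors' deposited table has it at 44.8 reads against 80.9 (adjusted p by DESeq = 0.028). Reads may be shared between such copies and the gene. The same caution holds for GAPDH, whose 51 named copies held 19847 and 18946 normalised reads in all, and TPI1, with 4 copies at 28.0% and 26.1%. Over all members 11 have named copies, 107 in number, and 1 copy was called.

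BNIP3L, a mitophagy receptor related to BNIP3, had 3101, 3078 and 2607 normalised reads in A and 3207, 3603 and 3449 in B, apart by little (limma adjusted p = 0.14). ADM, the vasodilator peptide adrenomedullin, had 1782, 1797 and 1542 against 1614, 1458 and 1513, overlapping. NDRG1, a stress-induced gene, overlapped at 207 to 247 against 186 to 224. ANKRD37, a small ankyrin repeat gene, went the other way, with 425, 506 and 495 in A above the 373, 364 and 337 of B. The authors' deposited table puts the log2 ratio of ANKRD37 at 0.41 (adjusted p by DESeq = 0.123), and the limma adjusted p was 0.0387. ANKRD37 and EGLN1 are thus the nearest members outside the deposited threshold, and PDK1 and HK1 the nearest inside it. Of the targets, the authors' deposited table has lower means in A for VEGFA 306.0 and 442.7 (-0.53), P4HA1 1347 and 1853 (-0.46), BNIP3 545.7 and 747.0 (-0.45) and BNIP3L 2928 and 3420 (-0.22). It has higher means in A, again in the authors' deposited table, for ADM 1707 and 1528 (0.16), NDRG1 224.7 and 208.0 (0.11) and ANKRD37 475.3 and 357.7 (0.41).

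**Figure D3:**
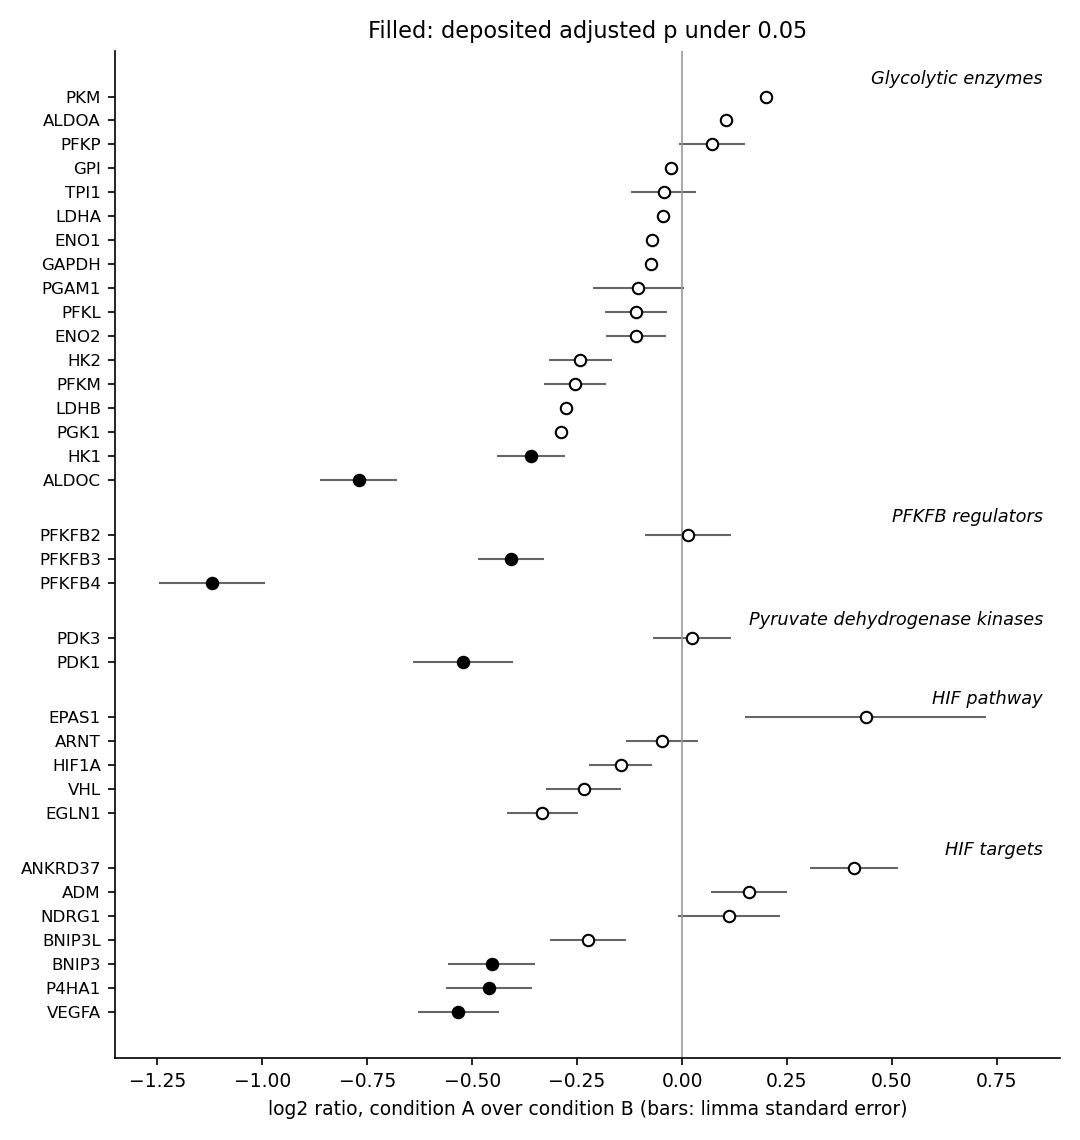
Log2 ratio of A over B from the deposited means for the 34 members, grouped by role, with bars for the limma standard error where libraries were recovered and filled points for a deposited adjusted p under 0.05. PFKFB4 at -1.12 and ALDOC at -0.77 stand below the rest, and ANKRD37 at 0.41 and EPAS1 at 0.44 are the highest.

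The calls for PFKFB4 and ALDOC held with any 1 library left out, and those of the other 6 called members did not. In limma fits on 5 libraries the adjusted p of PFKFB4 stayed between 0.000446 and 0.0112 and its log2 ratio between -1.20 and -1.04. For ALDOC the adjusted p ran from 0.000196 to 0.0173 and the log2 ratio from -0.82 to -0.71. Without library 2 of A, library 2 of B or library 3 of B, PFKFB4 and ALDOC were the 2 members called, and VEGFA had adjusted p of 0.0669, 0.0586 and 0.0552. These fits also called few genes of the whole table, with 263, 216 and 245 lower in A against 940 with all 6 libraries. The log2 ratios themselves moved less, from -0.59 to -0.49 for VEGFA and from -0.45 to -0.38 for PFKFB3. BNIP3 ran from -0.55 to -0.38, P4HA1 from -0.57 to -0.37, PDK1 from -0.63 to -0.44 and HK1 from -0.41 to -0.31.

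**Figure D4:**
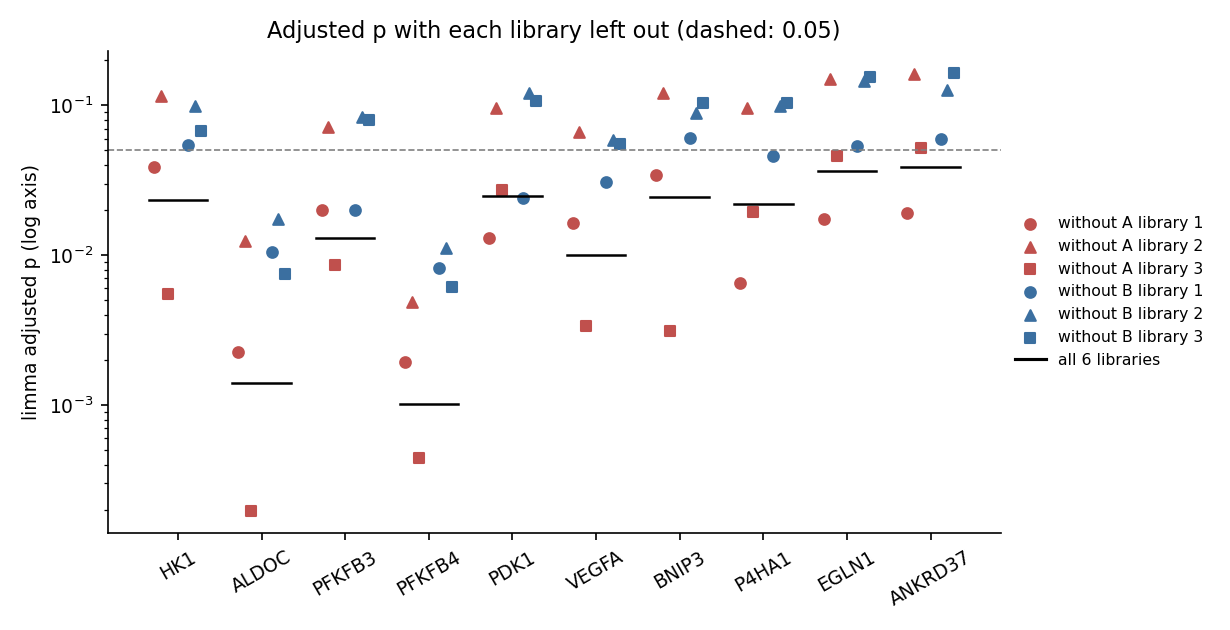
Limma adjusted p (log axis) of the 8 called members, EGLN1 and ANKRD37 with each library left out in turn, with black lines for all 6 libraries and a dashed line at 0.05. PFKFB4 and ALDOC stay under the line in every fit, at most 0.0112 and 0.0173.

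Members did not follow a common order among the libraries of one condition. Library 3 of A, which had the smallest size factor (0.768), was the highest of its condition in 11 of the 26 members and the lowest in 11. Among the called members HK1, ALDOC, VEGFA and BNIP3 were highest there, and PFKFB4, PDK1 and P4HA1 lowest. The libraries are numbered by falling size factor and match no replicate number of the labels.

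Isozymes were set side by side per kilobase of exon, on deposited means and GENCODE 29 lengths. ALDOC is the minor aldolase in these cells. The levels came to 266 normalised reads per kilobase for ALDOC and 16614 for ALDOA in A, and 454 and 15457 in B. ALDOC thus made up 1.58% of the aldolase signal in A and 2.86% in B. HK1 supplied 72.3% of the hexokinase signal in A and 73.9% in B. LDHB made up 63.4% and 67.0% of the lactate dehydrogenase signal per kilobase, an order set by the exon lengths used (2983 bases for LDHB and 6210 for LDHA), since LDHA had more reads than LDHB in both conditions. ENO1 exceeded ENO2, at 92.6% and 92.4%.

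Within the PFKFB family the share of PFKFB4 per kilobase was 5.84%, 6.78% and 5.73% in the libraries of A and 10.6%, 10.9% and 9.67% in B. PFKFB3 was the main form in every library, at 64.1% to 68.4%, and PFKFB2 took the larger share in A (mean 28.9% ± 1.00, SD, n = 3, against 22.3% ± 1.24). PDK1 made up 23.0%, 21.1% and 17.4% of PDK1 and PDK3 together in A and 25.8%, 28.0% and 27.8% in B, without overlap. The two-sided exact permutation p was 0.1 for the shares of PFKFB4, PFKFB2 and PDK1 (0.143 after Benjamini-Hochberg adjustment over 10 shares). The shares of PDK3, PFKL, PFKM and PFKP gave the same values. With 3 libraries against 3, 0.1 is the smallest p this test allows. Shares of a family add up to its whole, so the 10 tests are not independent. The shares were added after library values were seen, so these p-values describe the separation and do not test it.

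**Figure D5:**
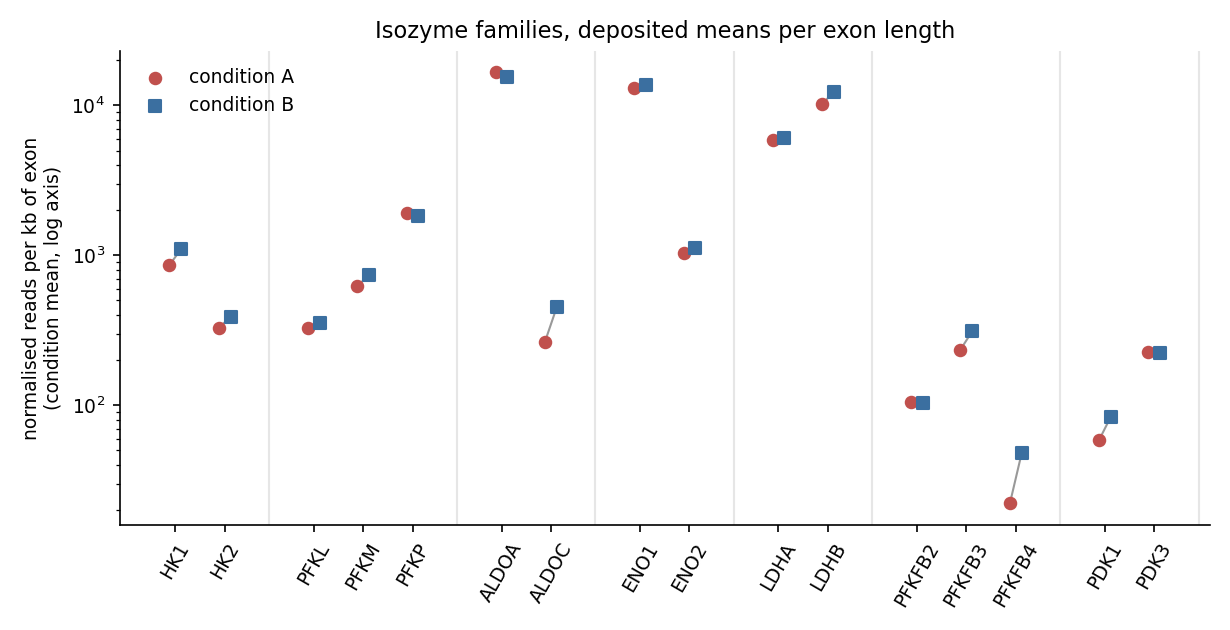
Normalised reads per kilobase of exon (log axis, deposited condition means) for the isozyme families, circles for condition A and squares for condition B. ALDOC and PFKFB4 show the steepest lines and are minor forms of their families, while ALDOA and ENO1 dominate theirs. LDHB lies above LDHA here because of its shorter exon length, with fewer reads than LDHA.

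Other genes of these pathways, listed by role, were called in both directions. Of 104 with a row, the authors' deposited table called 6 lower and 4 higher, beside the 1.57% and 0.966% of all genes, and their median log2 ratio was -0.07. Of the 104, 80 were at 50 reads or more, where the shares over all genes were 3.86% and 2.18%. None of 6 transport genes passed (0 by DESeq, 2 at an unadjusted p under 0.05 and 2 by limma, all lower). SLC2A3, a glucose transporter, and SLC16A3, a lactate exporter and HIF target, stood at log2 ratios of -0.43 and -0.40 (the authors' deposited table), with limma adjusted p of 0.0312 and 0.0321. SLC2A1, the main glucose transporter of many cells, had 0.17.

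Enzymes at the edge of glycolysis included 3 called genes, 1 of 10 around pyruvate dehydrogenase and 2 of 14 in side routes. Of these lists, 10 and 13 genes were at 50 reads or more, where 6.04% of all genes were called. GBE1, which branches glycogen and is a HIF target, had 1992, 1791 and 1450 normalised reads in A and 2667, 2862 and 3027 in B (log2 ratio -0.71 in the authors' deposited table). PYGB, a glycogen phosphorylase, was higher, with a log2 ratio of 0.47, and PDP2, a phosphatase that opposes the pyruvate dehydrogenase kinases, lower, with -0.40 in the authors' deposited table. None of 15 further isozymes was called (0 by DESeq, 4 at an unadjusted p under 0.05, all lower, and ADPGK and MINPP1 by limma). Of the 15, 9 were below 50 reads, which limits what the absence of calls shows. At an unadjusted p under 0.05, 5.3% of all genes were lower, and 11.9% of those at 50 reads or more. None of 16 other HIF pathway genes was called by DESeq (0, with 1 at an unadjusted p under 0.05 and 1 by limma). HIF1AN, a HIF hydroxylase, had a limma adjusted p of 0.0138, and the authors' deposited table puts its log2 ratio at -0.38.

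Of 43 other HIF targets the authors' deposited table called 4 lower and 3 higher, which is 16.3% of them beside 2.54% of all genes, and 31 of the 43 were at 50 reads or more, where the share was 6.04%. CCNG2, a cyclin of resting cells, had 1656, 1621 and 1282 normalised reads in A and 2172, 3045 and 2757 in B. The authors' deposited table puts its log2 ratio at -0.81, the lowest of these 7. DDIT4, an inhibitor of mTOR signalling, FUT11, a fucosyltransferase, and ERO1L, an oxidase of the endoplasmic reticulum, had -0.60, -0.43 and -0.41. CXCR4, a chemokine receptor, PPP1R15A, a stress phosphatase subunit, and TXNIP, a glucose-responsive arrestin, were higher with 0.58, 0.72 and 0.43 in the authors' deposited table. The median of this list was 0.02.

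Promoters of the members were searched for a single form of the core of the hypoxia element, the letters ACGTG on either strand (CACGT on the printed strand). Other forms, such as GCGTG, were not searched for. RefSeq windows of GRCh38.p14, each 300 bases from 250 before to 50 after a start, were on hand for 29 of the 34 members. PFKFB2, VEGFA, BNIP3L, NDRG1 and VHL had no entry. The letters were present in 5 of 7 called members and in 13 of 22 members not called, against 24.9% of all 27305 genes in the table, where any window of a gene counts. By window it was 42.3% of the 52 windows of members and 21.4% of 35116. The members had more windows per gene (52 for 29) than all genes (35116 for 27305), which raises their share when any window counts. Member windows were also richer in G and C, with a median of 69.7% against 58.7%. CACGTG holds the letters on both strands and counts here too, though it is also the E-box that MYC and other factors bind. The windows below are shown because they belong to the 4 members with the lowest log2 ratios among those with an entry and to ANKRD37, and capitals mark the letters.
PFKFB4 (chr3:48556754-48557053, minus strand): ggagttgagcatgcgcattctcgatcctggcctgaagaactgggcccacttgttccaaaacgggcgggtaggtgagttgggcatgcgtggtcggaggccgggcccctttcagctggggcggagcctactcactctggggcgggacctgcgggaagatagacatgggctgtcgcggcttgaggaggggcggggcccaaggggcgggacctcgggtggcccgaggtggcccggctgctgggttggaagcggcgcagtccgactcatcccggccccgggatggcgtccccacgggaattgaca
ALDOC (chr17:28576846-28577145, minus strand): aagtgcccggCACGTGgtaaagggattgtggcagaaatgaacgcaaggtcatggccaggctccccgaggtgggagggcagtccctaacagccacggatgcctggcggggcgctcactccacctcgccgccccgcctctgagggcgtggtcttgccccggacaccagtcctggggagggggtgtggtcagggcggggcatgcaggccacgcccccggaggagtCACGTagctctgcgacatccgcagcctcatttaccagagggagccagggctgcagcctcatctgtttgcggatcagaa
PDK1 (chr2:172555840-172556139, plus strand): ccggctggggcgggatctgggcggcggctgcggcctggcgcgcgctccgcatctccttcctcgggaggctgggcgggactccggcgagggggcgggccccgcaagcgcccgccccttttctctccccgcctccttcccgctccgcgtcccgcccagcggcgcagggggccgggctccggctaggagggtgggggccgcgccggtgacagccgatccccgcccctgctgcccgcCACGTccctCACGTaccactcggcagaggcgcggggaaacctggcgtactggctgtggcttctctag
P4HA1 (chr10:73096817-73097116, minus strand): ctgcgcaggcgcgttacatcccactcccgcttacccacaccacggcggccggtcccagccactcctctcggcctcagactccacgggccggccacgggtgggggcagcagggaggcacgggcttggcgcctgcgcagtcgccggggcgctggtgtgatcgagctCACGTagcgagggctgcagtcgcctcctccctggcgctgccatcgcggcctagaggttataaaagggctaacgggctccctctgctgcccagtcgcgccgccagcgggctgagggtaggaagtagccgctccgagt
ANKRD37 (chr4:185396591-185396890, plus strand): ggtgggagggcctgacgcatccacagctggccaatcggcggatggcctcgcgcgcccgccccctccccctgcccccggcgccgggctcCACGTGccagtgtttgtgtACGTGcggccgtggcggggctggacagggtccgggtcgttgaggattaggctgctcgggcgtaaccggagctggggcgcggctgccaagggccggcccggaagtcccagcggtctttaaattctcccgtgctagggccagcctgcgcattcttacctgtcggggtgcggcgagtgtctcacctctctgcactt
The window of PFKFB4, the member with the lowest ratio, holds no ACGTG on either strand. It does hold the letters GCGTG, a form that was not searched for or counted in any window. The window of ANKRD37 holds 3 matches, where a CACGTG counts on both strands. The search does not show that a window lacks other forms of the element. A match here is a description of the sequence, and binding was not measured.

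Called members lie on 5 chromosomes of build hg19, by their deposited coding intervals. PFKFB4 (ENSG00000114268) spans chromosome 3 from 48557183 to 48598548, and ALDOC (ENSG00000109107) spans chromosome 17 from 26900547 to 26902550. HK1, PFKFB3, BNIP3 and P4HA1 are all on chromosome 10, at 71048500 to 71160888, 6186961 to 6274902, 133782031 to 133795310 and 74767983 to 74834641. PDK1 is on chromosome 2 from 173420879 to 173460694 and VEGFA on chromosome 6 from 43738444 to 43752362.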

How the data were processed

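Per the submitters' processing notes, STAR, HTSeq 0.5.4p5 and DESeq 1.14.0 were used on build hg19; the sources used here do not say what each did, which annotation it read or whether strand counted. Reads of overlapping or antisense genes may therefore be mixed. Per the file headers, the table gives for each gene a mean of conditions A and B as a signal in normalised reads, that is, reads divided by size factors. The authors also give a fold (B over A) with its log2 ratio and, from DESeq, a raw and an adjusted p-value. The deposited coding intervals carry a score, which was not used. The log2 ratio deposited by the authors equals that of the means within 1e-08 in all 29068 rows where both means exceed 0, and the deposited adjusted p-value equals the Benjamini-Hochberg adjustment over 34675 rows. The log2 ratio is printed with its sign turned, as A over B. The table holds 0 columns per sample. Genes under 0.05 by that adjusted value count as called.

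Every mean combines whole reads of 3 libraries with constant weights and is given to 15 digits, so whole reads per library were recovered by an integer search. Means up to 40000 were searched, and above 1500 each library had to lie at 0.7 to 1.4 times the mean. In condition A 31396 of 31895 rows and in condition B 31726 of 31726 gave 1 solution. On simulated means 95.1% and 100.0% of genes were recovered, with 0 wrong. Of the 34 members 26 were recovered in both conditions, and PGK1, LDHB, LDHA, GPI, GAPDH, ENO1, ALDOA and PKM were not. Recovered rows hold 63.9% and 89.9% of the summed means, so their totals are not the full depth.

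limma 3.58.1 (R 4.3.3) with an intensity trend was fitted to log2(normalised reads + 1) of the 17048 recovered genes at a mean of 10 or more, and tested on simulated counts. The genes named are all members, with library values for called members, for those whose limma call differed and for HIF1A, ARNT, VHL and EGLN1, and other pathway genes where called. Genes named from the limma fit alone, the isozyme shares and further library values were added after values were seen. Members and lists were chosen with earlier results of these data known. The deposited table names 17231 genes; exon lengths are from GENCODE 29. Interval ends were counted from 1, because coding lengths were then multiples of 3 in 53.9% of genes, against 31.3% otherwise.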

Additional observations from a re-analysis of the deposited data

How the results depend on the processing

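No paired analysis was possible because the recovered libraries carry no replicate number of the labels. The members called lower in condition A numbered 8 as deposited, 3 at an adjusted p under 0.01, and between 2 and 10 in limma with 1 library left out. Members called higher numbered 0 as deposited and 1 (ANKRD37) in limma with a pseudocount of 1 or 5, without a filter and with equal totals, and 0 to 1 with 1 library left out. Other pathway genes called lower numbered 6 as deposited, 3 at an adjusted p under 0.01, 11 in limma (11 with a pseudocount of 5, 10 without a filter, 11 with equal totals) and 2 to 14 with 1 library left out. Those called higher numbered 4 as deposited, 7 with p adjusted over genes with a mean of at least 50, 7 in limma without a filter and 2 to 7 with 1 library left out. Over all genes, 546 were lower and 335 higher as deposited, and 324 and 181 at an adjusted p under 0.01. Limma gave 940 and 688, 949 and 693 with a pseudocount of 5, 913 and 700 without a filter, and 1040 and 595 with equal totals. With 1 library left out it gave 216 to 1284 lower and 137 to 1017 higher, so the limma counts varied with the library left out. They were lowest without library 2 of condition A or libraries 2 or 3 of condition B, and highest without library 1 of condition A. Each of these fits also has fewer libraries than the full one. Scaling both conditions to the same summed mean shifts every log2 ratio by -0.07 and moves the median of the members from -0.11 to -0.18. Signs turned in 4 members near 0, none of them called. With 1 library left out, TPI1 ran from -0.087 to 0.019 and turned without library 1 of condition B, as did PGAM1, which ran from -0.18 to 0.014. PFKFB2 was -0.0041 with equal totals and ran from -0.076 to 0.10, with -0.0074 without library 1 of condition A. PDK3 was -0.0013 with equal totals and ran from -0.036 to 0.071, and it was also below 0 at -0.033 without library 1 of condition B. The cause of these changes was not tested.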
